A study of Homo sapiens with 30 samples.

Results

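The genes described here are 40 genes that androgens are known to induce in prostate cells, taken as a named list out of 20033 protein-coding genes of the RefSeq annotation of hg38. Around them the open chromatin of 2 human prostate cancer cell lines was followed across doses of the synthetic androgen R1881 (methyltrienolone). A site counted as belonging to a gene when its summit, the base with the most fragments, lay in the gene body or within 50 kb of it. In this way 2617 of the 683007 sites of all libraries were assigned to the 40 genes. SLC45A3 and ELK4 share 64 of these sites and KRT8 and KRT18 share 47, because those genes are neighbours. The list was not chosen by these measurements, but it was chosen with earlier results of the same data known.

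The measurement was ATAC-seq, in which a transposase cuts accessible DNA and the cut fragments are sequenced. LNCaP and VCaP are epithelial lines grown from metastases of prostate cancer, and each stands for 1 tumour. LNCaP carries a mutated androgen receptor and VCaP an amplified receptor gene. All cells, vehicle controls included, were first kept for 48 h in medium with 8% charcoal-stripped serum, which holds little steroid hormone, and were then treated for 24 h. LNCaP, in RPMI medium, received vehicle or R1881 at 0.03, 0.06, 0.1 or 10 nM. VCaP, in DMEM medium, received vehicle or R1881 at 0.01, 0.03, 0.06 or 10 nM. Each of the 5 groups of a line had 3 libraries, 30 in all. The labels do not say that replicates were separate cultures, so the p-values measure the spread between these libraries, which may be technical.

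The androgen receptor is a transcription factor that stays in the cytoplasm until a hormone binds it, then enters the nucleus and binds DNA as a dimer at androgen response elements. Most of its binding sites lie in introns or between genes rather than at promoters, often beside sites of the forkhead factor FOXA1. In luminal prostate cells it drives secreted proteins of the seminal fluid, transporters, metabolic enzymes and regulators of growth, and the 40 genes sample all of these classes.

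The value used for a site is its percentile rank in a library. The lists of a line were shortened to equal length, to 134964 entries for LNCaP and to 104924 for VCaP, by dropping the entries with the largest peak p-values. The entries were then ranked by the authors' −log10 p, so that 100 is the strongest entry and 0 means that no entry was listed. The lists of the lines differ in length, so a rank or a listing is read within a line, and the test between lines compares changes on each line's own scale. Depth differed between libraries: the pileup of fragments in the lowest background, recovered from the deposited values at the 1st percentile, was 3.06 to 5.26 in LNCaP and 1.09 to 2.74 in VCaP. The vehicle replicates 1 and 2 of VCaP were the shallowest of that line at 1.14 and 1.09, so VCaP counts against vehicle are also given without them. An entry near the start of the gene was found in all 15 libraries of each line for 7 of 8 luminal markers, the exception being KRT8 at the start site in the table used. The same held for none of 3 basal, 2 endothelial and 4 immune markers in either line, of which CD3E was listed in 6 LNCaP and 11 VCaP libraries and each other marker in at most 2. Of 5 stromal markers COL1A2 had such an entry in all 15 LNCaP libraries and in 11 VCaP libraries.

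Near the 40 genes, in the ranks used here, more sites were called higher than lower at each dose with calls, and the number of calls grew with dose in both lines. In equal-length lists the 3 LNCaP vehicle libraries held 583, 576 and 539 sites near these genes and the 10 nM libraries 723, 685 and 667, with no overlap between the groups. The VCaP vehicle libraries held 496, 434 and 471 and those at 10 nM 578, 538 and 594, again without overlap. The same counts over all sites were not made, so these numbers do not tell whether the gain was particular to these genes. Over all tested LNCaP sites 10.7% were listed in no vehicle library and all 3 at 10 nM, against 12.8% near the 40 genes. The reverse held for 2.5% and 2.04%. In VCaP these shares were 5.45% and 6.97%, and 1.64% and 1.56%. Sites were tested with limma over all sites of a line, and a site was called at an adjusted p under 0.05. In LNCaP 835 sites near the 40 genes were tested. At 0.03 nM 32 of them were higher than in vehicle and 1 lower, against 2.19% higher and 0.298% lower among all sites. At 0.06 nM 59 were higher and 5 lower, against 4.84% and 0.69%. At 0.1 nM 98 were higher and 12 lower, against 7.3% and 2.2% of all sites. At 10 nM 198 (23.7%) were higher and 73 (8.74%) lower, against 16.1% and 10.2% of all sites. A site listed in the 3 libraries at 10 nM alone passes the filter of 3 libraries only through the group where it is high. There were 16 such sites near the 40 genes, and without them 183 of 819 (22.3%) were higher, against 14.8% of all sites. The median difference at 10 nM was 1.5 points over the sites near the 40 genes and −0.348 points over all sites.

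All 40 genes had at least 1 site called higher at 10 nM in LNCaP, where 72.0% of all protein-coding genes had one. A site called lower was present at 31 of the 40, against 61.6% of all genes, and each of these 31 also had a higher one. The 40 genes are long, with a median body of 53.3 kb against 24.1 kb for all genes, and hold a median of 61.5 sites against 43, so the shares of genes are not comparable at equal length. The split between higher and lower at 10 nM depends on the scale: with full-length lists it was 302 to 34, ranked by fold enrichment 137 to 152, and with only peaks of −log10 q of at least 5 it was 338 to 9. At 0.1 nM the last setting gave 128 to 1. Without replicate 3 or 4 of every LNCaP group the calls at 10 nM, 271 in all, numbered 166 and 134. Those at 0.1 nM, 110 in all, numbered 50 and 35, and those at 0.06 nM, 64 in all, numbered 32 and 24. At 0.03 nM 33 calls became 17 without replicate 4.

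VCaP gave far fewer calls. Of 703 tested sites near the 40 genes none was called at 0.01 nM by limma, where 0.0406% of all sites were higher and 0.00312% lower, and 32 had an unadjusted p under 0.05. Full-length lists called 2. At 0.03 nM 4 were higher and 0 lower, against 0.258% and 0.0218%. At 0.06 nM 8 were higher and 1 lower, against 1.01% and 0.165%, and the split was 21 to 0 with full-length lists and 5 to 2 ranked by fold enrichment. At 10 nM 65 (9.25%) were higher and 13 (1.85%) lower, against 6.66% and 2.74% of all sites. Without the 9 sites listed at 10 nM alone 57 of 694 (8.21%) were higher, against 5.87% of all sites. The median difference was 2.21 points, and −0.0937 points over all sites. A higher site was found at 33 of the 40 genes (35.3% of all genes) and a lower one at 12 (16.3%). These calls rest on few libraries: of 65 higher and 13 lower at 10 nM, 4 higher and 2 lower were called without replicate 1 of every group, and the same numbers without replicate 4. Leaving out the shallow vehicle replicates 1 and 2 keeps a vehicle arm of 1 library, which is assumed to vary like the other groups. It gave 17 higher and 4 lower at 10 nM, 4 and 1 at 0.06 nM, and 2 and 2 at 0.03 nM. At 0.06 nM 1 higher site was called without replicate 1 and 1 without replicate 4, and 15 higher and 3 lower without replicate 2. At 0.03 nM no site was called without replicate 1 or without replicate 4.

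**Figure D1:**
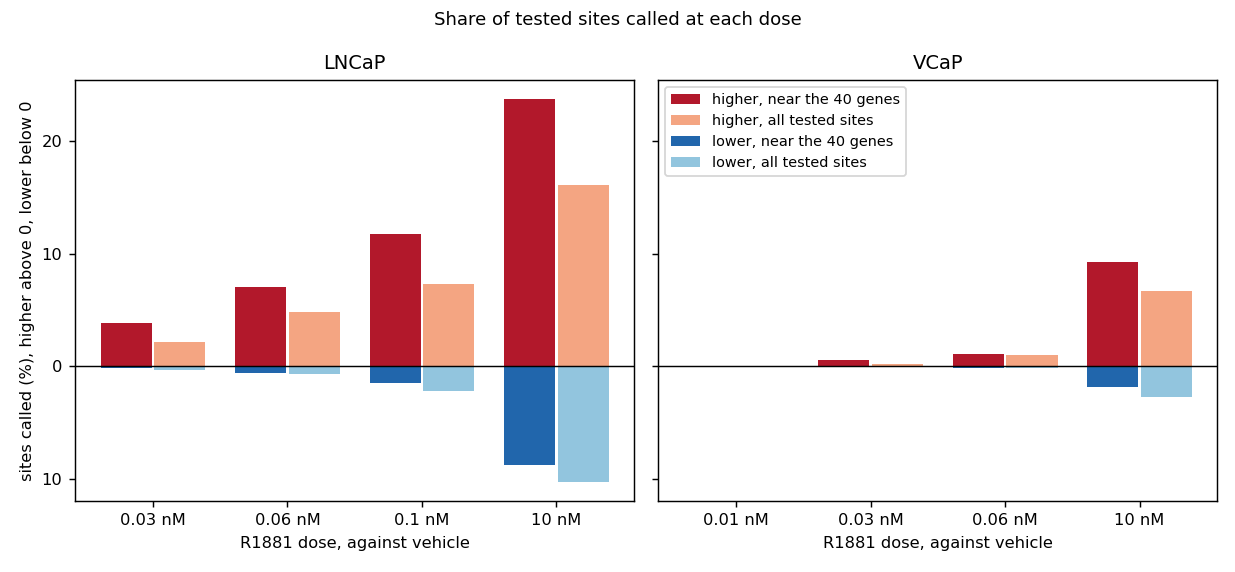
Share of tested sites called against vehicle at each R1881 dose in LNCaP (left) and VCaP (right). Bars above 0 show sites called higher and bars below 0 sites called lower, dark for sites near the 40 genes and light for all tested sites. At 10 nM the dark bars reach 23.7% in LNCaP and 9.25% in VCaP, above the light bars at 16.1% and 6.66%.

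The genes were ordered by the lowest dose with a new site, that is, a site with no entry in any of the 3 vehicle libraries and an entry in all 3 libraries of the dose. In LNCaP 10 genes had one at 0.03 nM (9.63% of all genes did), namely RAB4A, ALDH1A3, SLC45A3, HERC3, ADAMTS1, ANKH, ELK4, ITGAV, STK39 and TNFAIP8. By 0.06 nM 27 genes had one (29.1% of all genes), adding NDRG1, CHRNA2, IQGAP2, LIFR, HPGD, ELL2, ABCC4, SORD, ACP3, CENPN, PLPP1, EAF2, MERTK, PDLIM5, SLC26A2, SLC38A2 and UAP1. By 0.1 nM 33 genes did (41.1%), with MAF, AZGP1, MSMB, C1orf116, PTGER4 and SEC24D. PMEPA1, CAMKK2 and ACTN1 followed at 10 nM for a total of 36 (63.2%). GNMT, CREB3L4, KRT8 and KRT18 had none. At RAB4A, HERC3, ANKH, ITGAV, STK39 and TNFAIP8 a site new at 0.03 nM was also listed in all libraries of every higher dose. The new sites themselves numbered 11, 32, 53 and 107 at the 4 doses, or 1.32%, 3.83%, 6.35% and 12.8% of the tested sites near the 40 genes, against 0.951%, 3.32%, 4.86% and 10.7% of all tested sites. At each of the 4 doses their share was thus only modestly above the background, a difference that was not tested. With 1 replicate number left out, which asks for fewer libraries, 23 or 24 genes had a new site at 0.03 nM.

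In VCaP 4 genes had a new site at 0.01 nM (5.05% of all genes), which were IQGAP2, LIFR, UAP1 and ACTN1. None of these 4 sites was listed in all libraries of every higher dose. ACP3 and MERTK came next at 0.03 nM, for 6 genes (10.2%), and both kept their site at 0.06 and 10 nM. By 0.06 nM 16 genes had a new site (22.0%), with RAB4A, ELL2, ABCC4, SLC45A3, HERC3, EAF2, ELK4, PDLIM5, SLC26A2 and STK39. By 10 nM 29 had one (39.4%). The 11 genes with none in VCaP included ITGAV, ALDH1A3 and ADAMTS1, all of which had one at the lowest LNCaP dose. The new VCaP sites numbered 4, 4, 21 and 49 at the 4 doses, against shares of 0.478%, 0.698%, 2.25% and 5.45% of all tested sites. When only vehicle replicate 4 was required to lack the site, the genes numbered 16, 24, 30 and 35. With 1 replicate number left out, 14 to 18 genes had a new site at 0.01 nM. Sites lost at 10 nM, listed in all vehicle libraries and in none at 10 nM, were fewer: 17 in LNCaP (2.5% of all tested sites) and 11 in VCaP (1.64%).

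**Figure D2:**
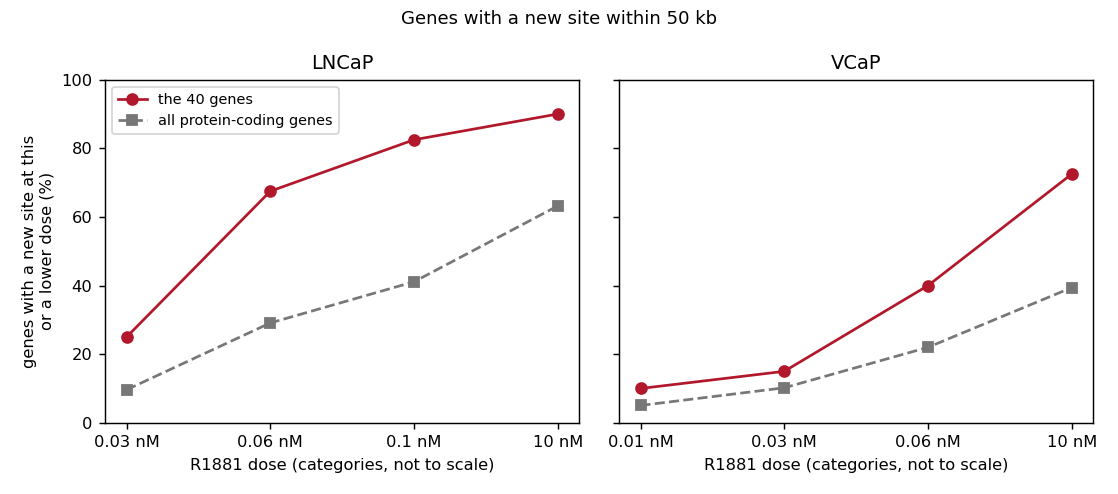
Share of genes with a new site at the given or a lower R1881 dose, as points joined by lines, for the 40 genes (red circles) and all protein-coding genes (grey squares) in LNCaP and VCaP; the dose axis is categorical. In LNCaP the 40 genes run from 10 to 36 genes and lie above the grey line at every dose.

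For each gene the lead site was defined as the site with the largest rise at 10 nM in LNCaP among those called higher. The lead sites were thus chosen on the LNCaP difference at 10 nM, and their sizes there describe the members; the p-values are adjusted over all 171246 LNCaP sites. There were 39 lead sites, since KRT8 and KRT18 share one, and 18 lay inside the body of their gene. At 25 of the 39 no vehicle library had an entry. The mean rank rose or stayed level at every dose step at 29 and was highest at 10 nM at 37. Rises over vehicle were called at 8 of them at 0.03 nM, 14 at 0.06 nM and 24 at 0.1 nM. The choice of lead sites favours an empty vehicle and a top mean at 10 nM, and the low-dose calls use the same vehicle libraries. These counts therefore only describe the lead sites. In VCaP 29 could be tested at 10 nM and 15 were higher, none was lower, and 6 were listed in no VCaP library. Of all sites tested in both lines and higher in LNCaP, 35.4% were higher in VCaP, without a choice of the largest rise. GNMT and TNFAIP8 are among the 15 and passed the filter in VCaP through the 10 nM libraries alone. The VCaP calls rest on few libraries. Without replicate 1 of every group 13 of the 15 could be tested and only PTGER4 and ANKH were called. Without replicate 4 it was PTGER4 and RAB4A of 12 tested, and without vehicle replicates 1 and 2 it was 6 of the 15. Without replicate 2 all 13 that could be tested were called.

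**Figure D3:**
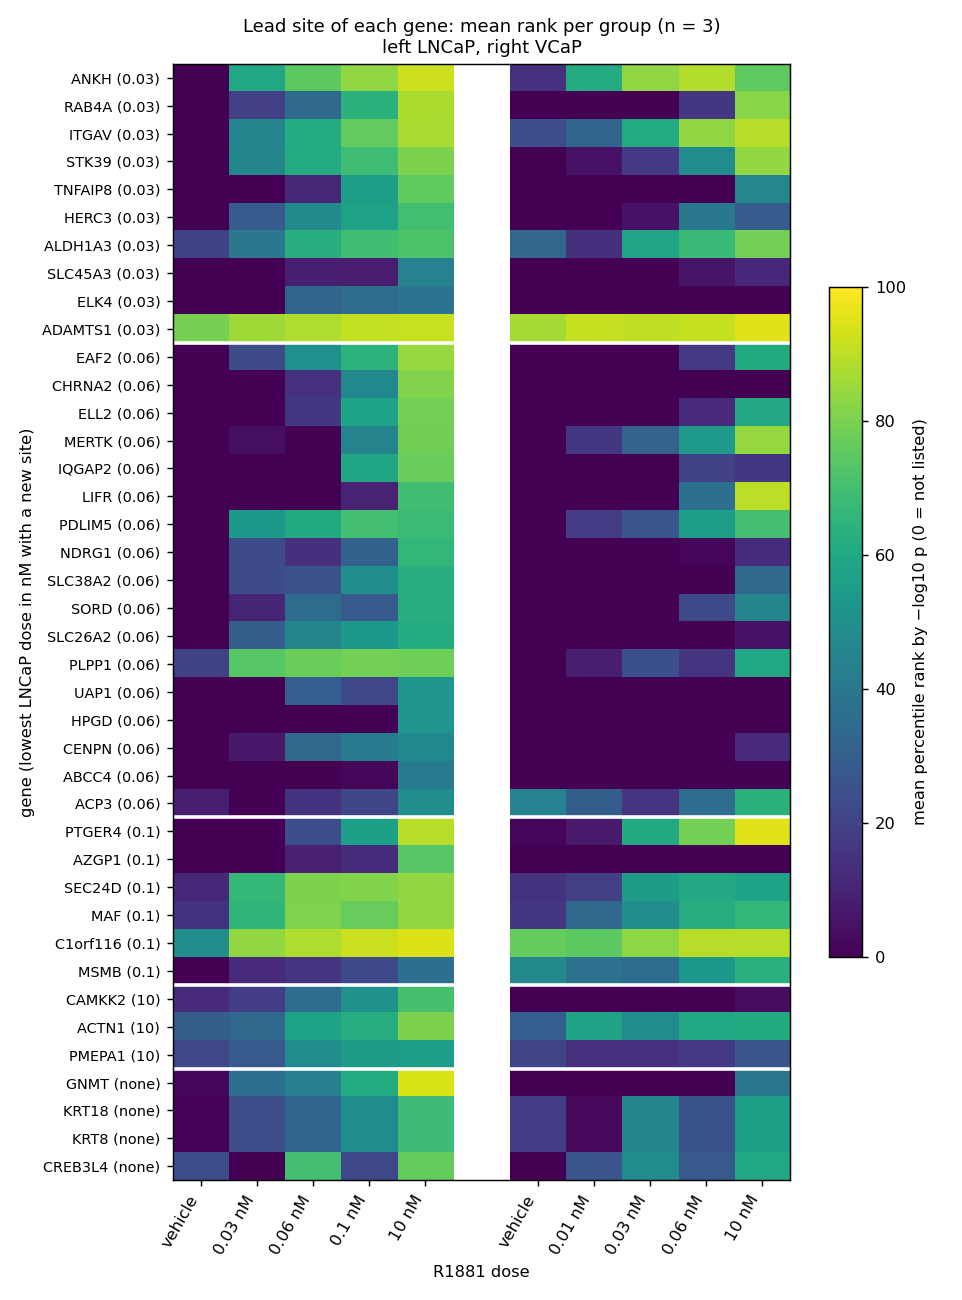
Mean percentile rank (colour, 0 to 100, n = 3 libraries) of the lead site of each of the 40 genes in the 5 LNCaP groups (left) and 5 VCaP groups (right). Rows are grouped by the lowest LNCaP dose with a new site, in nM in brackets, and white lines part the groups. Many LNCaP rows go from dark at vehicle to bright at 10 nM, which the choice of lead sites favours. The ADAMTS1 row is bright throughout and 6 sites stay dark in VCaP.

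Among the 5 genes of secreted or secretory-cell proteins 21 of 89 tested sites were higher in LNCaP at 10 nM and 9 lower, and in VCaP 9 of 93 were higher and 0 lower. Beside these counts and those of the role groups below stand the shares of all tested sites at 10 nM. They were 16.1% higher and 10.2% lower in LNCaP, and 6.66% and 2.74% in VCaP. Differences between role groups were not tested. AZGP1 encodes a zinc-binding glycoprotein of seminal fluid, and its lead site lay 12.8 kb outside the gene at chr7:99953663-99954163. In LNCaP it was not listed in vehicle or at 0.03 nM, stood at 0, 0 and 27.1 at 0.06 nM and at 0, 0 and 39.2 at 0.1 nM, and reached 69.1, 77.2 and 75.9 at 10 nM. The 10 nM libraries did not overlap those of any lower dose. The rise was 74.1 points (SE 11, adjusted p = 0.000111), and against the mean of the 3 low doses it was 66.7 points (SE 8.97, adjusted p = 8.1e-05). No VCaP library listed this site.

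C1orf116 encodes a cytoplasmic protein named for its regulation by androgen. Its lead site, 8.33 kb outside the gene at chr1:207009943-207010443, was open in vehicle and moved early: LNCaP ranks were 43.7, 39.1 and 65.4 in vehicle, 85.3, 82.6 and 83.9 at 0.03 nM and 92.2, 95.3 and 97.1 at 10 nM. Already the lowest dose did not overlap vehicle, with a rise of 34.5 points (SE 4.54, adjusted p = 0.000238). VCaP held 78.4, 83.3 and 67 in vehicle and 92.8, 86.9 and 87.7 at 10 nM, a difference of 12.9 points (SE 5.51, adjusted p = 0.165). The VCaP difference was called when replicate 2 was left out (adjusted p = 0.032). The LNCaP rise at 0.03 nM was not called without replicate 3 (adjusted p = 0.0686) or with only the groups compared in the fit (adjusted p = 0.373).

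ACP3 is prostatic acid phosphatase, a classical secretory product. Its lead site inside the gene at chr3:132360645-132361145 had LNCaP ranks of 0, 0 and 25.1 in vehicle and 53.9, 40.9 and 53.2 at 10 nM. The 2 groups did not overlap and differed by 40.9 points (SE 11.2, adjusted p = 0.012), but the adjusted p was 0.0911 without replicate 3 and 0.11 without replicate 4. VCaP ranks were 48, 40.01 and 44.5 in vehicle and 69.9, 61.9 and 61.3 at 10 nM, not called at adjusted p = 0.513. The seminal plasma protein gene MSMB had the smallest 10 nM level of the lead sites at 36.7 ± 5.54 (SD, n = 3), up from 0, and its call was lost without any 1 replicate (adjusted p = 0.116, 0.0586 and 0.0732). ADAMTS1, a secreted metalloprotease gene, had the smallest rise, from 79.3 ± 4.56 to 91.5 ± 1.03 (SD, n = 3) at a site that was strong in every library.

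The 5 transport genes held 139 tested sites in LNCaP, 34 higher and 14 lower, and 108 in VCaP, 14 higher and 2 lower. ANKH encodes a membrane protein that exports pyrophosphate and ATP from cells. Its lead site inside the gene at chr5:14721919-14722419 rose at every dose in LNCaP. From 0 in vehicle it went to 64.9, 64.1 and 49.5 at 0.03 nM, 77.8, 76.9 and 69.5 at 0.06 nM, 84.2, 83.8 and 81.9 at 0.1 nM and 93.7, 90.1 and 93 at 10 nM. No 2 neighbouring doses overlapped. In the authors' deposited peaks the fold enrichment at its summit was 4.54, 4.36 and 2.77 at 0.03 nM and 12, 8.13 and 9.48 at 10 nM. The rise at 0.03 nM was 59.5 points (SE 4.96, adjusted p = 1.97e-06) and at 10 nM 92.3 points (SE 4.96, adjusted p = 5.93e-09). VCaP showed another shape, with 43.3, 0 and 0 in vehicle, 70.6, 49.5 and 64.2 at 0.01 nM, 85.2, 81.4 and 83.2 at 0.03 nM, 88.6, 89.3 and 87.2 at 0.06 nM and 73.2, 79.8 and 72.6 at 10 nM. There the 10 nM libraries lay below all those at 0.03 and 0.06 nM, while the difference from vehicle was 60.8 points (SE 10.03, adjusted p = 0.00102). Without replicate 4 that VCaP difference had an adjusted p of 0.079. Against the mean of the 3 low doses 10 nM was not called in VCaP.

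SLC38A2 encodes a neutral amino acid transporter. Its lead site 29 kb outside the gene at chr12:46328914-46329414 was at 0 in LNCaP vehicle, at 59.4, 49.8 and 38.7 at 0.1 nM and at 67, 62.2 and 59.4 at 10 nM, with a rise of 62.8 points (SE 11.2, adjusted p = 0.000535). The sulfate transporter gene SLC26A2 had its lead site 49.5 kb outside, within the body of PDE6A at chr5:149910996-149911496. There LNCaP ranks were 0 in vehicle, 0, 55 and 33 at 0.03 nM, 38.2, 51 and 47.4 at 0.06 nM and 51.7, 69.6 and 62.9 at 10 nM, for a rise of 61.4 points (SE 11.3, adjusted p = 0.000679). Only 1 VCaP library, at 10 nM, listed this site. Another SLC26A2 site, at chr5:149935458-149935958, had VCaP ranks of 0 in vehicle and 81.5, 76.5 and 74.6 at 10 nM. It rose by 77.5 points (SE 16.8, adjusted p = 0.00569), with an adjusted p of 0.136 without replicate 1 and 0.091 without replicate 4. The prostein gene SLC45A3 rose by 44.4 points (SE 9.07, adjusted p = 0.00154) at a site nearer to NUCKS1, 28.7 kb from SLC45A3. Ranked by fold enrichment the difference was 6.51 points and was not called (adjusted p = 0.0815). ABCC4, which encodes an efflux pump and has a body of 281.6 kb, had 12 of 44 tested sites higher in LNCaP at 10 nM and 2 lower. Its lead site inside the gene was at 0 in vehicle and at 49.8, 40.6 and 33.9 at 10 nM.

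Of the sites at the 6 enzyme genes 22 of 94 were higher in LNCaP and 6 lower, and 6 of 70 higher in VCaP and 3 lower. GNMT, whose product methylates glycine, had the largest rise of all lead sites. The site lay 21.1 kb outside GNMT within the read-through gene CNPY3-GNMT at chr6:42939442-42939942. LNCaP ranks were 0.471, 3.27 and 0 in vehicle, 19.99, 38 and 52.1 at 0.03 nM, 49.1, 41.1 and 40.4 at 0.06 nM, 75.1, 70.1 and 39.4 at 0.1 nM and 94.3, 93.4 and 95.1 at 10 nM. The 10 nM libraries were above all others and the 3 low doses overlapped one another. Its deposited fold enrichment in the authors' peaks was 16.3, 13.8 and 14.2 at 10 nM, against 2.04 and 2.28 in the vehicle libraries that listed it. The rise was 93 points (SE 9.64, adjusted p = 4.87e-06). VCaP had no entry below 10 nM and 48.8, 43.1 and 26.5 there. In VCaP it thus passed the filter through the 10 nM libraries alone, and no test is given.

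SORD, the sorbitol dehydrogenase gene, rose from 0 in LNCaP vehicle to 57.2, 58.4 and 71.2 at a site 34.9 kb outside the gene at chr15:44988080-44988580, by 62.3 points (SE 12.7, adjusted p = 0.00149). In VCaP the same site went from 0 to 42.5, 45 and 49.4, by 45.7 points (SE 11.4, adjusted p = 0.0139), and neither line's 10 nM group overlapped vehicle. The VCaP rise had an adjusted p of 0.194 without replicate 1 and 0.117 without replicate 4. PLPP1 encodes a lipid phosphatase, and its lead site inside the gene at chr5:55526741-55527241 had LNCaP ranks of 0, 59.7 and 0 in vehicle, 73.8, 78.5 and 69.3 at 0.03 nM and 83.3, 65.5 and 85.2 at 10 nM. The rise at the lowest dose was 54 points (SE 11.4, adjusted p = 0.0142), and was not called without replicate 3 (adjusted p = 0.367) or 5 (adjusted p = 0.201). With only the groups compared in the fit its adjusted p was 0.765. Vehicle replicate 4 was the only vehicle library with an entry. The rise at 10 nM, 58.1 points (SE 11.4, adjusted p = 0.00112), had an adjusted p of 0.0758 without replicate 3 and 0.0587 without replicate 5. The prostaglandin dehydrogenase gene HPGD opened a site inside the gene at 10 nM alone, with 57.5, 41.1 and 58.7 in LNCaP and 0 in every other library of both lines. ALDH1A3, which makes retinoic acid, rose by 52.6 points (SE 13.9, adjusted p = 0.00998), with an adjusted p of 0.119 without replicate 3, 0.109 without replicate 4 and 0.468 ranked by fold enrichment, where the difference was 14.9 points. UAP1, which makes the sugar donor UDP-N-acetylglucosamine, had a lead site at chr1:162548192-162548692 with LNCaP ranks of 0 in vehicle and 58.7, 48.6 and 50.7 at 10 nM, a rise of 52.6 points (SE 10.1, adjusted p = 0.00094), and no VCaP library listed it.

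Transcription and elongation factors formed a group of 5 genes, with 22 of 97 sites higher and 9 lower in LNCaP and 6 of 100 higher and 3 lower in VCaP. EAF2 encodes a partner of the ELL elongation factors. Its lead site was 21 kb outside the gene, within IQCB1 at chr3:121813959-121814459, and LNCaP ranks climbed from 0 through 33.9, 36.4 and 0 at 0.03 nM, 51.2, 65 and 34.6 at 0.06 nM and 65.5, 75.3 and 53.3 at 0.1 nM to 85.2, 83 and 85.9 at 10 nM. VCaP listed it in 1 library at 0.06 nM and in all 3 at 10 nM, at 67.7, 56.1 and 58.4. The rises at 10 nM were 84.7 points (SE 10.3, adjusted p = 2.1e-05) in LNCaP and 60.7 points (SE 12.9, adjusted p = 0.00485) in VCaP. The VCaP rise had an adjusted p of 0.156 without replicate 1 and could not be tested without replicate 4.

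ELL2, an elongation factor gene, had its lead site 45.4 kb outside within CAST at chr5:96007016-96007516. It was at 0 in LNCaP vehicle, at 52.7, 68.5 and 53.3 at 0.1 nM and at 75, 78.1 and 84.1 at 10 nM, a rise of 79.1 points (SE 11.1, adjusted p = 7.2e-05). VCaP reached 61.9, 54.7 and 64.7 at 10 nM, up by 60.4 points (SE 11.6, adjusted p = 0.00246), with an adjusted p of 0.119 without replicate 1 and 0.0693 without replicate 4. The bZIP factor gene MAF, whose body is the longest of the 40 at 398.1 kb, moved at low dose. Its lead site inside the gene at chr16:79327573-79328073 had LNCaP ranks of 19.3, 25 and 0 in vehicle, 65.2, 73.8 and 57.3 at 0.03 nM and 82.1, 86.7 and 82.8 at 10 nM. The rise at 0.03 nM was 50.7 points (SE 6.2, adjusted p = 0.000114) and that at 10 nM 69.1 points (SE 6.2, adjusted p = 1.19e-06). With only the groups compared in the fit, the MAF rise at 0.03 nM was not called (adjusted p = 0.203). The CREB3L4 lead site, at its promoter, was listed in some libraries and absent in others of the same group; its call, 52.8 points (SE 18.2, adjusted p = 0.042), turned to a difference of −0.94 points (adjusted p = 0.529) when peaks were matched by any overlap instead of by summit. It was also lost without replicate 3 (adjusted p = 0.33) or 5 (adjusted p = 0.149). The ETS factor gene ELK4 had its lead site within its neighbour SLC45A3 at chr1:205677161-205677661. LNCaP ranks there were 0 in vehicle, 32.5, 55.9 and 8.35 at 0.06 nM and 24.7, 39.8 and 49.2 at 10 nM. Its rise of 37.9 points (SE 11.2, adjusted p = 0.0192) had an adjusted p of 0.0869, 0.108 and 0.0624 without replicates 3, 4 and 5. Ranked by fold enrichment it was 2.43 points (adjusted p = 0.791).

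The 4 receptor genes had 20 of 85 sites higher and 9 lower in LNCaP, and 6 of 68 higher and 1 lower in VCaP. PTGER4 encodes a prostaglandin receptor, and its lead site, 29.9 kb outside the gene at chr5:40649803-40650303, rose in both lines. LNCaP ranks were 0 in vehicle and at 0.03 nM, 28.1, 44.2 and 0 at 0.06 nM, 52.7, 70.3 and 46.1 at 0.1 nM and 90.04, 86.2 and 91.7 at 10 nM. VCaP ranks were 0, 5.24 and 0 in vehicle, 21.8, 0 and 0 at 0.01 nM, 65.4, 58.6 and 58.8 at 0.03 nM, 78.2, 70.6 and 88 at 0.06 nM and 96.7, 97.5 and 90.6 at 10 nM. The rises at 10 nM were 89.3 points (SE 10.6, adjusted p = 1.6e-05) in LNCaP and 93.2 points (SE 11.7, adjusted p = 0.000172) in VCaP, the largest of the VCaP rises near the 40 genes, and the call was also made without replicate 1, 2 or 4.

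MERTK encodes a receptor tyrosine kinase. At its lead site inside the gene, chr2:111927468-111927968, LNCaP ranks were 51.2, 55 and 27.8 at 0.1 nM and 84.5, 77.4 and 73 at 10 nM after 0 in vehicle, and VCaP ranks 53.9, 72.9 and 35.3 at 0.06 nM and 87.1, 83.5 and 82.3 at 10 nM after 0. The rises were 78.3 points (SE 9.11, adjusted p = 1.36e-05) and 84.3 points (SE 14.5, adjusted p = 0.00128). LIFR encodes the leukemia inhibitory factor receptor. LNCaP ranks at chr5:38561601-38562101 inside the gene were 0 in vehicle and at 0.03 and 0.06 nM, 28.9, 0 and 0 at 0.1 nM and 82.7, 59.9 and 65.8 at 10 nM, and VCaP ranks 0 up to 0.03 nM, 53.1, 0 and 56.1 at 0.06 nM and 89.3, 92.9 and 88 at 10 nM. It rose by 69.5 points (SE 9.22, adjusted p = 4.27e-05) in LNCaP and 90.1 points (SE 14.5, adjusted p = 0.000865) in VCaP. In VCaP the adjusted p was 0.0829 and 0.0687 for LIFR and 0.0959 and 0.0791 for MERTK without replicates 1 and 4 respectively. The nicotinic receptor gene CHRNA2 had a site seen in LNCaP alone. This lead site within EPHX2, 20.4 kb from CHRNA2 at chr8:27499427-27499927, was at 0 in LNCaP vehicle and at 0.03 nM, 0, 30.5 and 12.6 at 0.06 nM, 46.1, 52.5 and 41.2 at 0.1 nM and 80.6, 79.1 and 83.9 at 10 nM. The rise was 81.2 points (SE 9.01, adjusted p = 9.05e-06), and no VCaP library listed the site. None of the 10 tested VCaP sites near CHRNA2 was called.

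**Figure D4:**
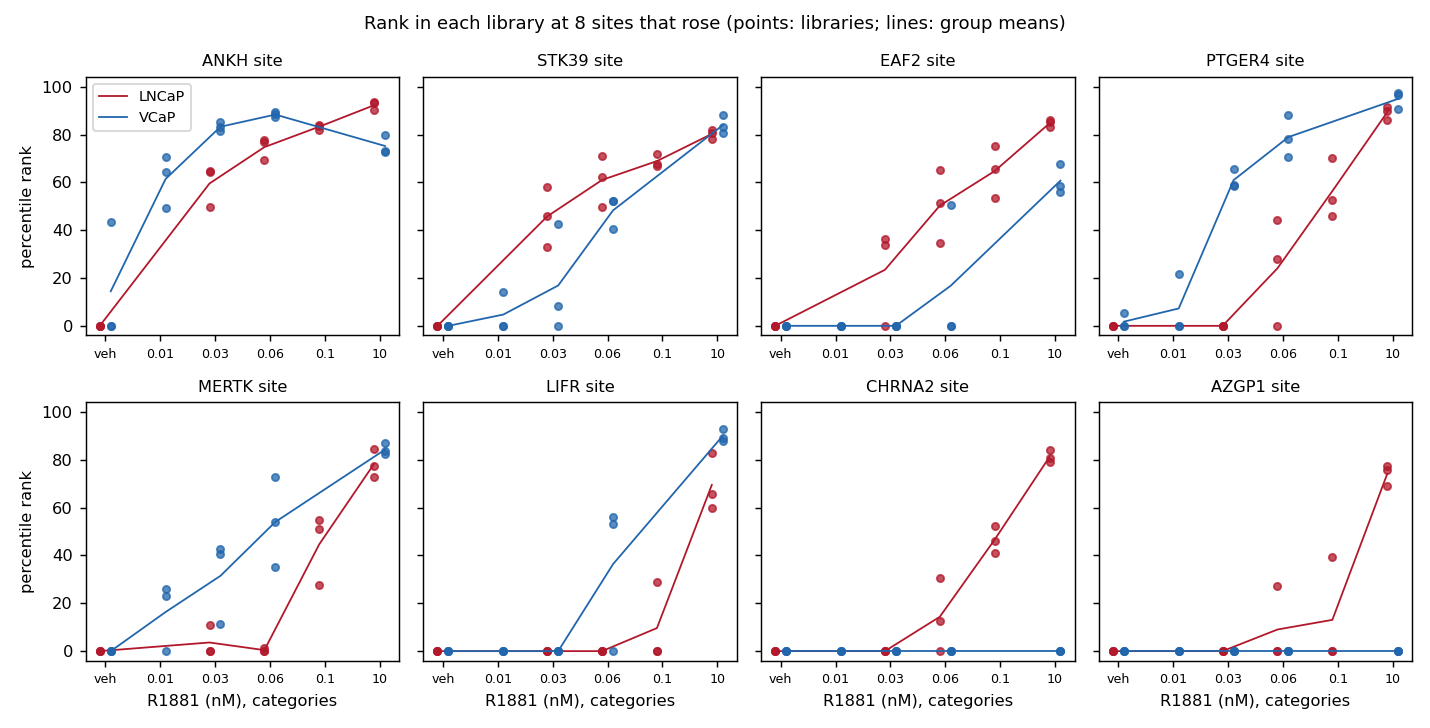
Percentile rank of 8 lead sites in each library (points) and the group means (lines) against R1881 dose in nM on a categorical axis, LNCaP in red and VCaP in blue. PTGER4, MERTK, LIFR and STK39 rise in both lines, CHRNA2 and AZGP1 stay at 0 in VCaP, and the ANKH site in VCaP is lower at 10 nM than at 0.06 nM.

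The 5 signalling genes had 26 of 113 sites higher and 7 lower in LNCaP and 12 of 128 higher and 2 lower in VCaP. STK39 encodes a kinase that acts on ion cotransporters. Its lead site inside the gene at chr2:168220974-168221474 went in LNCaP from 0 to 46, 58.2 and 33 at 0.03 nM, 49.6, 71.2 and 62.2 at 0.06 nM, 67.9, 72 and 66.8 at 0.1 nM and 80.7, 78.2 and 81.9 at 10 nM. VCaP ranks were 8.14, 0 and 42.5 at 0.03 nM, 52.1, 40.5 and 52.2 at 0.06 nM and 88.3, 83 and 80.4 at 10 nM after 0 in vehicle. The rises at 10 nM were 80.3 points (SE 7.42, adjusted p = 1.62e-06) in LNCaP and 83.9 points (SE 13.9, adjusted p = 0.00104) in VCaP, with an adjusted p in VCaP of 0.0966 without replicate 1 and 0.0689 without replicate 4. TNFAIP8, a gene first found as induced by tumour necrosis factor, had LNCaP ranks of 0 in vehicle, 64.1, 74 and 28.5 at 0.1 nM and 82.3, 67 and 77.2 at 10 nM at chr5:119270796-119271296 inside the gene. It rose by 75.5 points (SE 11.8, adjusted p = 0.000177), and ranked by fold enrichment the difference was 13.4 points and not called (adjusted p = 0.144). In VCaP it was listed in the 10 nM libraries alone, at 38.3, 53 and 47.3, so no test is given, and ranked by fold enrichment the VCaP difference was 6.57 points against 46.2.

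NDRG1, a stress and differentiation response gene, had its lead site 44 kb outside at chr8:133340951-133341451. LNCaP ranks were 0 in vehicle, 0, 48.8 and 44.3 at 0.1 nM and 59.3, 73.9 and 65 at 10 nM, for a rise of 66.1 points (SE 13.2, adjusted p = 0.0013), while VCaP was at 0, 6.44 and 31.1 at 10 nM with no call. Listed peak entries near NDRG1 went from a mean of 23.3 in VCaP vehicle to 46 at 10 nM. In LNCaP they went from 12.3 to 18.7. More than 1 entry can join a site, and the same means over all genes were not computed. By site, 4 of 36 tested near NDRG1 were higher at 10 nM in VCaP, 2 lower and 2 new. In LNCaP 7 of 19 were higher, 2 lower and 6 new. CAMKK2, a calcium-dependent kinase gene, rose by 58.6 points (SE 12.4, adjusted p = 0.00199) at a site within ANAPC5, with an adjusted p of 0.0527 without replicate 4. PMEPA1, an inhibitor of TGF-beta signalling, had the weakest call of the lead sites at adjusted p = 0.0499, and lost it in 7 of 10 alternative settings.

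The 6 genes of the cytoskeleton and adhesion held 32 higher and 11 lower of 135 sites in LNCaP and 10 higher and 2 lower of 98 in VCaP. ITGAV encodes an integrin chain, and its lead site 45.6 kb outside at chr2:186544163-186544663 opened from the lowest dose. LNCaP ranks were 0 in vehicle, 51.7, 32.9 and 50.8 at 0.03 nM, 82.1, 75.8 and 69.9 at 0.1 nM and 88.7, 84.3 and 88.7 at 10 nM. VCaP ranks were 43.9, 0 and 28.1 in vehicle, 78.3, 85.9 and 86 at 0.06 nM and 89.9, 88.4 and 89.6 at 10 nM. The rises were 87.2 points (SE 7.07, adjusted p = 4.27e-07) and 65.3 points (SE 13, adjusted p = 0.00325). The VCaP rise had an adjusted p of 0.0878 without replicate 1 and 0.102 without replicate 4. IQGAP2, a scaffold protein gene, had its lead site inside the gene at chr5:76496222-76496722, unlisted in LNCaP up to 0.06 nM, at 67.3, 52.1 and 58.5 at 0.1 nM and at 73.7, 77.2 and 80.6 at 10 nM. Between 0.06 and 0.1 nM it thus went from no library to all 3, and at 10 nM it had risen by 77.2 points (SE 8.01, adjusted p = 4.92e-06).

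PDLIM5, which links signalling proteins to actin, had 13 of 36 tested sites called higher in LNCaP at 10 nM and 2 lower. That was the largest count of the 40 genes, but its body of 216.3 kb is long and counts were not adjusted for length. Of all tested sites 16.1% were higher and 10.2% lower. Its lead site 18 kb outside at chr4:94685997-94686497 had LNCaP ranks of 0, 1.02 and 0 in vehicle, 54.3, 50.3 and 55.7 at 0.03 nM and 76.6, 63.3 and 64.4 at 10 nM, and VCaP went from 0 to 64.6, 78.4 and 68.4. The rises at 10 nM were 67.8 points (SE 9.94, adjusted p = 0.000101) and 70.5 points (SE 16.8, adjusted p = 0.0103). The VCaP rise had an adjusted p of 0.166 without replicate 1 and 0.0963 without replicate 4. KRT8 and KRT18, the luminal keratin pair, shared a lead site inside KRT8 with a rise of 67.8 points (SE 11.7, adjusted p = 0.000396) in LNCaP. ACTN1, an actin crosslinker gene, rose by 50.7 points (SE 13, adjusted p = 0.00808) at a site inside the gene, with an adjusted p of 0.0924 without replicate 4.

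The remaining 4 genes, of trafficking and other roles, had 23 of 100 sites higher and 14 lower in LNCaP and 3 of 59 higher and 1 lower in VCaP. RAB4A encodes a small GTPase of endosome recycling. At its lead site 41.1 kb outside, chr1:229229714-229230214, LNCaP ranks rose without overlap between doses from 0 in vehicle to 14.3, 19.1 and 23.2 at 0.03 nM, 36.9, 32.3 and 33.6 at 0.06 nM, 61, 70.9 and 60.8 at 0.1 nM and 82.6, 90.5 and 90.2 at 10 nM. VCaP was at 0 up to 0.03 nM, at 4.65, 9.2 and 34.5 at 0.06 nM and at 85.6, 76.7 and 84.2 at 10 nM. The rises at 10 nM were 87.8 points (SE 7.28, adjusted p = 5.37e-07) and 82.2 points (SE 11.9, adjusted p = 0.000448), the latter at adjusted p = 0.0756 without replicate 1. SEC24D, a coat protein gene of vesicles leaving the endoplasmic reticulum, went in LNCaP from 34.2, 0 and 0 in vehicle to 76.7, 72 and 50.8 at 0.03 nM and 90.3, 76.6 and 84.8 at 10 nM inside the gene at chr4:118733747-118734247, with rises of 55.1 points (SE 8.68, adjusted p = 0.00127) and 72.5 points (SE 8.68, adjusted p = 1.78e-05). HERC3, a ubiquitin ligase gene, went from 0 to 40.1, 6.61 and 39.4 at 0.03 nM and 65.2, 71.3 and 72.4 at 10 nM inside the gene at chr4:88631668-88632168, by 69.7 points (SE 9.05, adjusted p = 3.6e-05) at 10 nM. The SEC24D rise at 0.03 nM was not called without replicate 4 (adjusted p = 0.142) or with only the groups compared in the fit (adjusted p = 0.42). CENPN, a centromere protein gene, had a lead site at chr16:80981063-80981563, 25.9 kb outside, that went from 0 to 44.3, 27.6 and 28.5 at 0.06 nM and 41.9, 50.1 and 47.7 at 10 nM in LNCaP. Its rise of 46.6 points (SE 9.67, adjusted p = 0.00177) had an adjusted p of 0.0554 without replicate 4.

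Sites near the same genes also closed. The 6 largest falls at 10 nM in LNCaP near the 40 genes began at CENPN. Its site inside the gene at chr16:81012986-81013486 had ranks of 69.6, 76.3 and 65.1 in vehicle, 41.4, 57.8 and 34.8 at 0.1 nM and none at 10 nM. That is a change of −70.3 points (SE 7.95, adjusted p = 1.06e-05). PTGER4 had a site inside its body, also within TTC33, at chr5:40713488-40713988, which fell while the lead site outside the gene rose. Its ranks were 86.3, 87.5 and 83.8 in vehicle, 85, 85.6 and 79.7 at 0.03 nM, 84.1, 78.5 and 74.2 at 0.06 nM, 77.5, 74.4 and 68 at 0.1 nM and 32.1, 15.9 and 1.38 at 10 nM. The low-dose groups stayed at or above 68 and the change at 10 nM was −69.4 points (SE 6, adjusted p = 8.11e-07). Neither the CENPN nor the PTGER4 site was listed in any VCaP library.

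PLPP1 fell inside the gene at chr5:55518970-55519470 from 64.3, 64.9 and 72.4 to 0 in all 3 libraries at 10 nM, a change of −67.2 points (SE 8.07, adjusted p = 1.82e-05). MSMB fell 18.2 kb outside the gene at chr10:46064260-46064760 from 79.6, 86.3 and 77.9 to 42.5, 2.68 and 4.96, a change of −64.6 points (SE 8.56, adjusted p = 4.27e-05). PDLIM5 fell at chr4:94690384-94690884, near its rising lead site, from 60.6, 63.5 and 59 in vehicle through 0, 4.54 and 36.4 at 0.1 nM to 0, a change of −61 points (SE 10.1, adjusted p = 0.000287). It was also called at 0.1 nM, and the other falls named here were not. C1orf116 fell inside the gene at chr1:207027968-207028468 from 61.6, 58.7 and 56.8 to 0 in every 10 nM library, a change of −59 points (SE 9.46, adjusted p = 0.000215). With peaks of −log10 q of at least 5 the PDLIM5 and C1orf116 calls were lost, at adjusted p = 0.121 and 0.0998.

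The 6 largest VCaP falls were at none of these 6 sites. The largest, near SLC26A2 at chr5:149995893-149996393 within TIGD6, went from 67.4, 75.7 and 60.6 in vehicle to 0 in all 3 libraries at 10 nM, a change of −67.9 points (SE 14.7, adjusted p = 0.00557). Matched by any overlap the change was −2.33 points (adjusted p = 0.901). Those near SEC24D, ALDH1A3, EAF2, ELK4 and KRT18 followed, with changes of −55.6, −53.9, −47.3, −44.8 and −43 points. All 6 were below the threshold of 0.05 in the full set, and none was called without replicate 1, without replicate 4 or without the shallow vehicle libraries. The EAF2, ELK4, KRT18 and SEC24D sites were called lower in LNCaP too, at adjusted p of 0.00109, 0.0161, 0.00571 and 0.0229. A further VCaP decrease, 1 of the 5 largest for 10 nM against the low doses, was inside NDRG1 at chr8:133260593-133261093. Ranks there were 99.2, 98 and 96.8 in vehicle, 87.8, 86.3 and 87.5 at 0.06 nM and 64.7, 69.3 and 68.9 at 10 nM, without overlap between these groups, and the change at 10 nM was −30.4 points (SE 2.2, adjusted p = 4.44e-07). The site was among the strongest 5% of entries in VCaP vehicle and was listed in only 1 LNCaP library. It was called in all 11 alternative settings, those without replicate 1, 2 or 4 included.

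**Figure D5:**
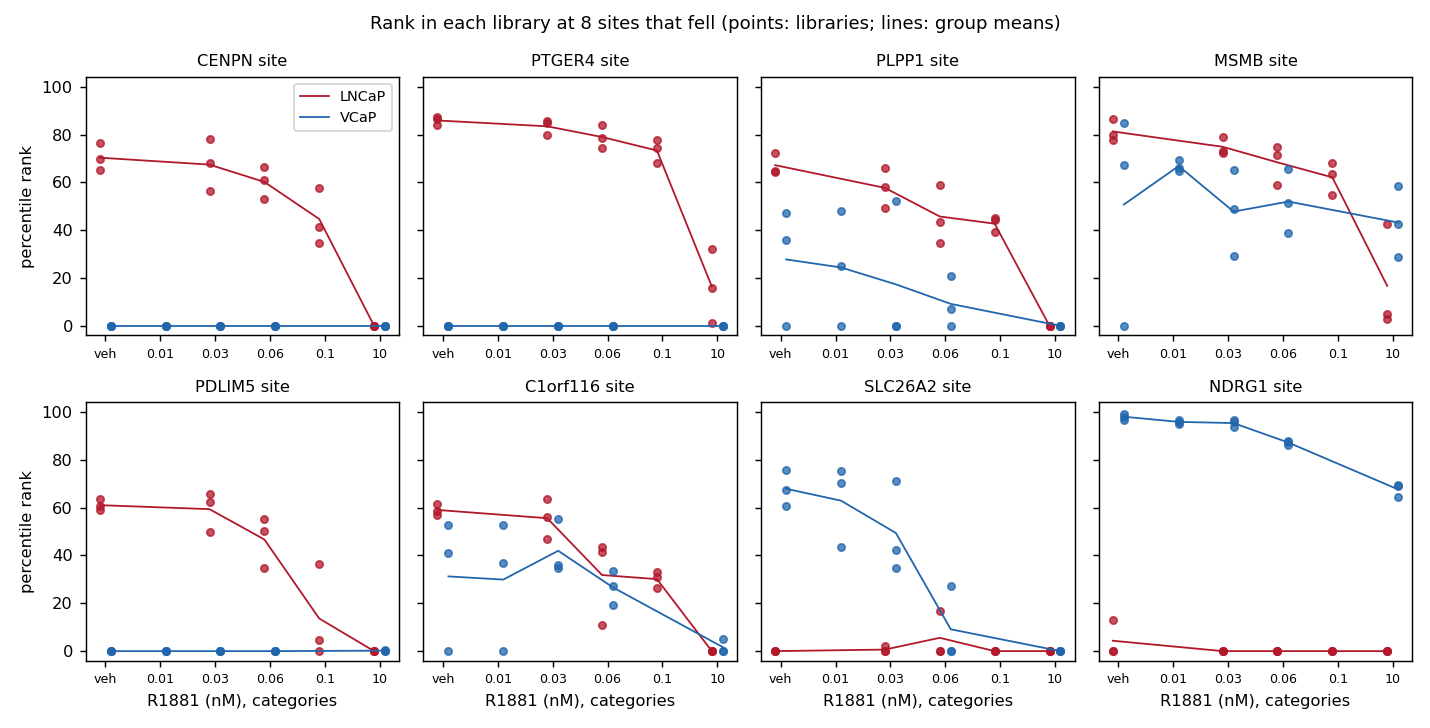
Percentile rank in each library (points) and group means (lines) at 8 sites that fell at 10 nM, against R1881 dose in nM on a categorical axis, LNCaP in red and VCaP in blue. In LNCaP the CENPN and PTGER4 sites stay open through 0.1 nM and drop at 10 nM, and in VCaP the NDRG1 site steps down from 98 to 67.6.

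The study set low against high doses, so 10 nM was also compared with the mean of the 3 low doses. In LNCaP 100 of the 835 sites were higher at 10 nM and 61 lower, against 9.36% and 6.11% of all sites. Of the tested sites, 16 near the 40 genes and 2878 in all were listed at 10 nM alone. Such sites lie above the low doses by construction, and the counts were not repeated without them. The split was 183 to 27 with full-length lists, 71 to 138 ranked by fold enrichment and 225 to 10 with a −log10 q of at least 5, and with 1 replicate number left out it was 30 to 31 (replicate 3), 24 to 14 (replicate 4) and 55 to 54 (replicate 5). The 5 largest rises were the lead sites of AZGP1, LIFR, PTGER4, MERTK and CHRNA2, by 66.7, 66.3, 62.5, 62.1 and 60.9 points. Among the 5 largest falls were the PTGER4, CENPN, MSMB and PLPP1 sites described above. The fifth was open mainly at low dose: near ELL2, within CAST at chr5:95975035-95975535, ranks were 14.1, 60.5 and 0 in vehicle, 53.3, 47.1 and 53.4 at 0.03 nM, 44.3, 59 and 59.8 at 0.06 nM, 52.7, 43.5 and 59.2 at 0.1 nM and 0, 5.58 and 0 at 10 nM. All 9 low-dose libraries were above the 3 at 10 nM, by −50.6 points (SE 10.1, adjusted p = 0.00212) as a change, while vehicle spread across both. Without replicate 3 its adjusted p was 0.0686.

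In VCaP 42 of 703 sites were higher at 10 nM than at the low doses and 7 lower, against 4.35% and 1.21% of all sites, a split that turned without replicate 1 or 4. It was 0 higher to 2 lower without replicate 1, 21 to 8 without replicate 2 and 2 to 3 without replicate 4. Here 9 tested sites near the 40 genes and 1209 in all were listed at 10 nM alone, above the low doses by construction. The counts were not repeated without them. The largest rises were at LIFR, RAB4A, SLC38A2, HPGD and STK39. The SLC38A2 site 24.3 kb outside at chr12:46396791-46397291 was listed at 10 nM alone in both lines, at 74.5, 67.4 and 68.3 in VCaP and 53.9, 24.4 and 19.9 in LNCaP. HPGD had a site 17.1 kb outside at chr4:174539728-174540228 that was listed in no library except those of VCaP at 10 nM, at 72.1, 56.1 and 67.7. The lead site inside HPGD was listed in LNCaP at 10 nM alone. Both the SLC38A2 and the HPGD site passed the filter in VCaP through the 10 nM libraries alone, so their values are given with no test. The LIFR and STK39 rises over the low doses were not called without replicate 1 or 4, nor that of RAB4A without replicate 1.

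Of the sites near the 40 genes 517 could be tested in both lines. Of these 133 were higher at 10 nM in LNCaP and 51 in VCaP, and 41 in both, which is 30.8% of the LNCaP and 80.4% of the VCaP set, near 35.4% and 84.1% over all sites. Another 8 were lower in both and none was called in opposite directions. The 41 sites lay at 25 of the genes, with 4 at ANKH and 3 each at LIFR and PDLIM5. Of the 107 sites new in LNCaP at 10 nM 36 (33.6%) were listed in no VCaP library, against 38.3% of all sites new there. Of the 49 new in VCaP 14 (28.6%) were listed in no LNCaP library, against 19.3% of all. New in both lines were 17, which is 15.9% of the LNCaP and 34.7% of the VCaP set, against 15.2% and 39.6% over all sites. The difference between the lines was itself called at 24 of the 517 sites, 17 with the more positive change in LNCaP and 7 in VCaP, against 1.64% and 0.976% of all sites. Ranked by fold enrichment the split was 5 to 14, and the total fell to 5 without VCaP replicate 1, to 6 without LNCaP replicate 4 and to 13 without LNCaP replicate 3. Without VCaP replicate 4 the split was 10 to 10. The IQGAP2 lead site had a difference of 61.2 points (SE 13.3, adjusted p = 0.0102). VCaP listed it at 29.5, 0 and 28.5 at 0.06 nM and in 1 of 3 libraries at 10 nM. The difference was not called with the full-length lists or with only the groups compared. It was also not called without LNCaP replicate 3, 4 or 5 (adjusted p = 0.0563, 0.0888 and 0.0701). The GNMT lead site had a difference of 53.6 points. It is counted among the 24, but in VCaP it passed the filter through the 10 nM libraries alone, so no test is given for it.

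Position was read against the assigned gene among the 40 only, and for a shared site against the first of its genes. Bodies and ends of other genes were not counted. Of the tested LNCaP sites near the 40 genes 8.74% were within 1 kb of an end of that gene, against 4.55% of those higher and 0.935% of those new at 10 nM. Inside its body lay 52.5% of the higher sites, 52.1% of the lower ones and 46.9% of all tested ones. In VCaP 6.15% of the higher sites were within 1 kb of an end of the assigned gene and 10.7% of the tested ones. These shares were not tested against each other. The side of a gene end where transcription starts was taken from the RefSeq promoter table, which holds 31 of the 40 genes.

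In LNCaP 34 start sites of 30 genes were tested, with a median rank of 93.0 in vehicle and 90.6 at 10 nM. Called higher were 3, at AZGP1, ACTN1 and CREB3L4, and called lower were 5, at ELK4, ACP3, CENPN and 2 sites of LIFR. Of all tested LNCaP sites 16.1% were higher and 10.2% lower. In VCaP 36 were tested, none was higher and 1 at LIFR was lower, against 6.66% and 2.74% of all tested sites. The shares over the start sites of all genes were not computed. The AZGP1 start went from a mean of 47.5 in LNCaP vehicle to 62.6 at 0.03 nM and 70.8 at 10 nM (adjusted p = 0.0196) and was unlisted in VCaP. That call was lost without replicate 3 (adjusted p = 0.159) or 4 (adjusted p = 0.0771). An internal start of ACTN1 rose from 92.7 to 97.0 (adjusted p = 0.0031), but not without replicate 4 (adjusted p = 0.0921), and ranked by fold enrichment the difference was −2.27 points (adjusted p = 0.596). The CENPN start fell from 95.6 to 84.1 (adjusted p = 5.17e-05) and stayed between 95.1 and 96.5 at the low doses, a call made in all 10 alternative settings.

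The promoters of AZGP1, ACTN1 and CENPN are shown as 3 of the 5 with a called start site that had an entry inside the promoter window, the others being CREB3L4 and ELK4, and that of GNMT because it alone among the 48 promoters of the 31 genes holds the core searched for. Each runs from 250 bases before to 50 after the RefSeq start (GRCh38), 5′ to 3′ on the strand of the gene. Those windows are chr7:99975982-99976281 (minus strand), chr14:68937902-68938201 (minus strand), chr16:81006964-81007263 (plus strand) and chr6:42960504-42960803 (plus strand). Capitals in the GNMT promoter mark the letters of an androgen response element core, GNACANNNTGTNC, searched on both strands. The motif was found in 0.389% of 34941 promoters, and in GNMT it starts 19 bases after the start site.
AZGP1 promoter: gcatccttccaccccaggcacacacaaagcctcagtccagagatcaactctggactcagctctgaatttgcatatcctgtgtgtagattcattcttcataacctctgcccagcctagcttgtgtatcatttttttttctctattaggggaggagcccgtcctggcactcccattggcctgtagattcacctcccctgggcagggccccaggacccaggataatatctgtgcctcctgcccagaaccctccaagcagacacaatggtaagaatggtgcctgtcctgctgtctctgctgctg
ACTN1 internal promoter: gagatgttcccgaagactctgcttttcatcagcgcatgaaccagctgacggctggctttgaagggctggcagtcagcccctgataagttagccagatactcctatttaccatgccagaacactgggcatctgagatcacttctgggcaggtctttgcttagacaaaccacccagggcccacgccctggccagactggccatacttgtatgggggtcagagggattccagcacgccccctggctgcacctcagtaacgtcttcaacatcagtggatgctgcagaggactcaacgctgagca
CENPN promoter: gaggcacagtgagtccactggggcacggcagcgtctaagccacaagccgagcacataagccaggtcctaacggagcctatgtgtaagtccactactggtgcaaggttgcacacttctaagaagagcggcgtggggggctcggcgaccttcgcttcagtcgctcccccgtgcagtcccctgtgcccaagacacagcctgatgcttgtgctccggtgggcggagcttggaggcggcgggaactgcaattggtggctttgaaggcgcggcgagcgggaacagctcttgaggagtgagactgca
GNMT promoter: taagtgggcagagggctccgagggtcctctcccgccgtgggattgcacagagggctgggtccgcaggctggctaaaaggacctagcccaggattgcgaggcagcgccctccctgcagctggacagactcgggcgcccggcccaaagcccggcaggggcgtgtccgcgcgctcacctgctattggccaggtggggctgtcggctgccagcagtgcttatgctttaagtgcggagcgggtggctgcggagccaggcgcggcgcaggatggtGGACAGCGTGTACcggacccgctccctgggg

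The GNMT start itself was listed in all groups, with means of 95.4 in LNCaP vehicle and 97.0 at 10 nM, and was not called (adjusted p = 0.174). The forkhead motif TGTTTAC, also searched on both strands and not overlapping the other, was in 3.42% of all promoters and in 1 of the 48, at LIFR. A match of letters is a description and does not show binding. The lead sites of these 4 genes lie outside the windows, and their sequences were not used here.

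A second list of 65 other androgen response genes, also chosen with earlier results known, was read from the same fits. In LNCaP at 10 nM 212 of its 1129 tested sites (18.8%) were higher and 9.21% lower, against 23.7% and 8.74% near the 40 genes and 16.1% and 10.2% of all sites. A higher site was present at 59 of these 65 genes. In VCaP 82 of 921 (8.9%) were higher and 27 (2.93%) lower, against 9.25% and 1.85% near the 40 genes. The difference between the lists was not tested.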

How the data were processed

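ATAC-seq was measured in 30 libraries, 3 per group, of LNCaP and VCaP. Per the submitters' processing notes reads were handled with MACS2 2.2.7.1, BWA 0.7.17, deepTools 3.5.1 and Trimmomatic 0.39 on the GRCh38 build; their settings are not given in the sources used here. The authors deposited 1 peak list per library, with a score, a fold enrichment (a ratio over local background) and the −log10 of p and q per peak. The LNCaP lists had 135254 to 223998 entries each, those of VCaP 105034 to 170787. Reads per library are not in these lists. Relative depth was recovered from fold enrichment and −log10 p, which gave whole pileups within 0.05 for 100% of the solved entries. Entries with a low background or without a whole value at first were searched again over whole pileups alone. Where these entries found a match, a whole value was thus given by construction.

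Peak summits of all libraries on the numbered chromosomes, X and Y were merged into sites: the strongest became centres at least 501 bp apart, and every other summit joined the nearest centre. A site is written as the 501 bp around its centre. Ranks were tested with limma 3.58.1 in R 4.3.3, with variance trend and robust moderation, over sites with an entry in at least 3 of 15 libraries of a line, with Benjamini-Hochberg adjustment over all of them (two-sided, called at 0.05). The fit held the 5 groups of a line; the line difference used all 30 libraries. Alternatives were full-length lists, fold-enrichment ranks, a q threshold, peak overlap, filters, the groups fitted alone, replicate blocks and left-out replicates. On simulated data the test recovered larger rises more often than smaller ones. Calls at the unchanged simulated sites are not given here, so this is no measure of the error rate. Gene bodies and promoters came from RefSeq tables (GRCh38.p14). Members, gene lists and tests were chosen with earlier results of these data known. Named sites are the lead site of each gene, described per library for up to 3 genes per role, the 6 largest VCaP rises, the 6 largest falls per line, and the 5 largest differences each way for 10 nM against low doses and between lines; start-site and promoter results were added by their calls. Exon and intron limits were not used here.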

Additional observations from a re-analysis of the deposited data

Results flagged for a closer look

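The change from vehicle to 10 nM differed between the lines by limma's interaction term at 24 sites near the 40 genes, of which the 5 largest differences in each direction are given here. The LNCaP change exceeded the VCaP change by 67.2 points near HERC3, 61.2 near IQGAP2, 57.1 near SLC26A2, 53.8 near PDLIM5 and 53.6 near GNMT. At the SLC26A2 and PDLIM5 sites VCaP was open in vehicle already, with means of 75.1 and 75.2, and LNCaP rose to 76 and 61.9. The VCaP change was the more positive near another SLC26A2 site (−72.0 points, LNCaP minus VCaP), ADAMTS1 (−39.5), SLC38A2 (−37.3), CREB3L4 (−22.4) and CENPN (−21.8). ADAMTS1 fell by 29.8 points in LNCaP inside the gene (adjusted p = 0.0106) and was not called in VCaP. At CREB3L4 and CENPN the low value was VCaP vehicle, at 56.2, 55.9 and 82.6 and 52.7, 58.7 and 75.7 in replicates 1, 2 and 4. Replicates 1 and 2 are the 2 shallow libraries, and their part in these differences was not tested. The SLC38A2 site was listed in both lines in the 10 nM libraries alone and the GNMT site likewise in VCaP, so both passed the filter there through the group where they are high. Each of the 10 calls was lost in at least 1 alternative setting.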

How the results depend on the processing

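Counts below are calls near the 40 genes, in both directions, at all doses against vehicle unless stated. The range when a replicate number was left out was 17 to 36 at 0.03 nM, 24 to 70 at 0.06 nM, 35 to 106 at 0.1 nM and 134 to 240 at 10 nM in LNCaP (33, 64, 110 and 271 with all libraries), and 38 to 109 for 10 nM against low doses (161). In VCaP it was 0 to 0 at 0.01 nM, 0 to 4 at 0.03 nM, 1 to 18 at 0.06 nM and 6 to 71 at 10 nM (0, 4, 9 and 78), and 2 to 29 against low doses (49). The line difference ranged from 5 to 27 (24). Genes with a new site ranged from 40 to 40 in LNCaP and 33 to 36 in VCaP (36 and 29). Leaving all other groups out of a fit gave 5, 33 and 63 at the 3 low LNCaP doses, 1, 0 and 50 in VCaP at 0.03, 0.06 and 10 nM, and 7 for the line difference. A −log10 q of at least 5 gave 17 in LNCaP at 0.03 nM, 0, 0 and 26 in VCaP at 0.03, 0.06 and 10 nM, 18 for VCaP against low doses and 13 for the line difference. Full-length lists gave 2, 7 and 21 in VCaP at 0.01, 0.03 and 0.06 nM; at 0.03 nM fold-enrichment ranks gave 2 and overlap matching 2. Without VCaP vehicle replicates 1 and 2, an alternative chosen after seeing the data, which leaves 1 vehicle library, counts were 2, 5 and 21 at 0.01, 0.06 and 10 nM. A filter of at least 1 library gave 48 for the line difference. The cause of these moves was not tested.

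The replicate block moved 2 counts by over 1.5 times, VCaP 0.06 nM to 22 and the line difference to 41. Deviations from the group means correlated with a median of 0.14 (LNCaP) and 0.138 (VCaP) between same-numbered libraries and −0.114 and −0.101 between differently numbered ones. Numbers were taken to pair samples only if every same-numbered pair was above 0.1, and 24 of 30 LNCaP pairs (lowest −0.132) and 26 of 30 VCaP pairs (lowest 0.0583) were, so the block stayed an alternative. Still, all 15 VCaP and 10 of 15 LNCaP libraries correlated best with their own number, a hint from the data and not from the design. Of 49 named LNCaP sites at 10 nM 33 stayed on their side of the threshold in every alternative run, of 25 VCaP sites 2 did, and of 10 line differences and 5 LNCaP sites at 0.03 nM none did. Changes of sign were seen at the CREB3L4 lead site (−0.94 points with overlap matching), the ACP3 lead site in VCaP (−5.72 with fold-enrichment ranks) and the ACTN1 start in LNCaP (−2.27 with fold-enrichment ranks). Shallow VCaP libraries limit what absence of an entry can show there.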
